A study of Mus musculus with 12 samples.

Results

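Corneal endothelial cells pump fluid out of the cornea, and the study asked whether sex changes the disease caused by loss of Slc4a11, an ion transporter of these cells. The genes described here are 9 grouped as steroid hormone receptors, their relatives and steroid-converting enzymes, taken by symbol from the 15838 genes of the deposited tables. Of these, 5 are nuclear receptors (Esr1, Esr2, Esrra, Nr3c1 and Nr3c2), 2 are membrane components named for progesterone binding (Pgrmc1 and Pgrmc2), and 2 are enzymes (Hsd17b11 and Srd5a1). RNA came from the Descemet membrane with its endothelium, peeled from C57BL/6 mice at 10 weeks of age. There were 3 male Slc4a11-/- (KO), 3 female KO, 3 male Slc4a11+/+ (WT) and 3 female WT libraries, 12 in all. KO mice carry a constitutive targeted deletion of several Slc4a11 exons, and WT mice were littermates. The sample labels state that membranes were pooled within a genotype, whereas the study's methods state that both corneas of a mouse were processed as a pair.

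Steroid hormones cross the cell membrane and bind nuclear receptors, which chaperones hold ready and which act at DNA together with coregulators. Estrogen acts through ERα (Esr1) and ERβ (Esr2), cortisol and corticosterone through the glucocorticoid receptor (Nr3c1), and aldosterone through the mineralocorticoid receptor (Nr3c2). Enzymes in the target cell can raise or lower the amount of active hormone before it reaches its receptor.

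Each gene has 1 usable value, the authors' mean log2 CPM (read counts scaled to library size) over all 12 libraries, with KO and WT and both sexes together. No value per library was used, so the means carry no error, the depth behind them is unknown, and no difference between KO and WT or between male and female mice was computed. The usual check of the targeted gene in each library could not be made, and the pooled mean of Slc4a11 was 10.71 log2 CPM. Long transcripts collect more reads than short ones, so genes are compared with each other after division by length, as CPM per kilobase (kb) of the gene's merged exons. The undivided mean log2 CPM was used to count the genes of a list against the all-gene median and to choose which genes of a list are named. The list counts were not repeated per kb, where some genes lie on the other side of the median. With no spread to set against a difference, the order of 2 genes close in level is a description.

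All 10 markers of corneal endothelium stood between 9.15 (Cdh2) and 12.79 (Col8a2) log2 CPM, so the labeled tissue had its defining transcripts. The 5 markers of stroma, the collagen layer in front of the Descemet membrane, were also high, from 8.42 (Kera) to 11.90 (Col1a1) log2 CPM. Per kb the stromal markers reached 650 CPM (Dcn) and the endothelial markers 2009 CPM (Aqp1). The list median per kb was higher for stroma (9.10 log2 CPM) than for corneal endothelium (8.35 log2 CPM). Marker lists of nerve (3 genes), leukocytes (3 genes) and iris pigment cells (5 genes) had no gene at or above the all-gene median of 3.76 log2 CPM. Of the 5 epithelial markers only Krt5 (5.12) did, and of the 3 blood vessel markers only Kdr (6.36). Of 4 muscle markers 2 had a row, Myh11 (7.69) and Acta2 (5.64 log2 CPM), both above the median. In bulk RNA, fewer cells of a type and less RNA per cell cannot be told apart. The part of stromal RNA in the levels of the steroid genes was not tested.

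Per kb, Pgrmc1 had the highest level of the 9 genes, at 87.5 CPM, followed by Nr3c1 at 23.8 and Pgrmc2 at 18.2 CPM. Hsd17b11 came next at 12.4 CPM. These 4 genes lay above the all-gene median of 3.45 CPM per kb. Esr1 (3.39 CPM), Esrra (2.98 CPM), Nr3c2 (2.32 CPM), Esr2 (1.10 CPM) and Srd5a1 (0.478 CPM) lay below it, Esr1 by very little. That median was computed with merged exons only, so the side of Esr1 with another length is unknown. The nuclear receptors were spread over much of the range of the 9 genes, from Nr3c1 in second place to Esr2 in the place before last. By log2 CPM, 6 of the 9 genes lay at or above the all-gene median of 3.76, a line that splits all genes evenly by definition.

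**Figure D1:**
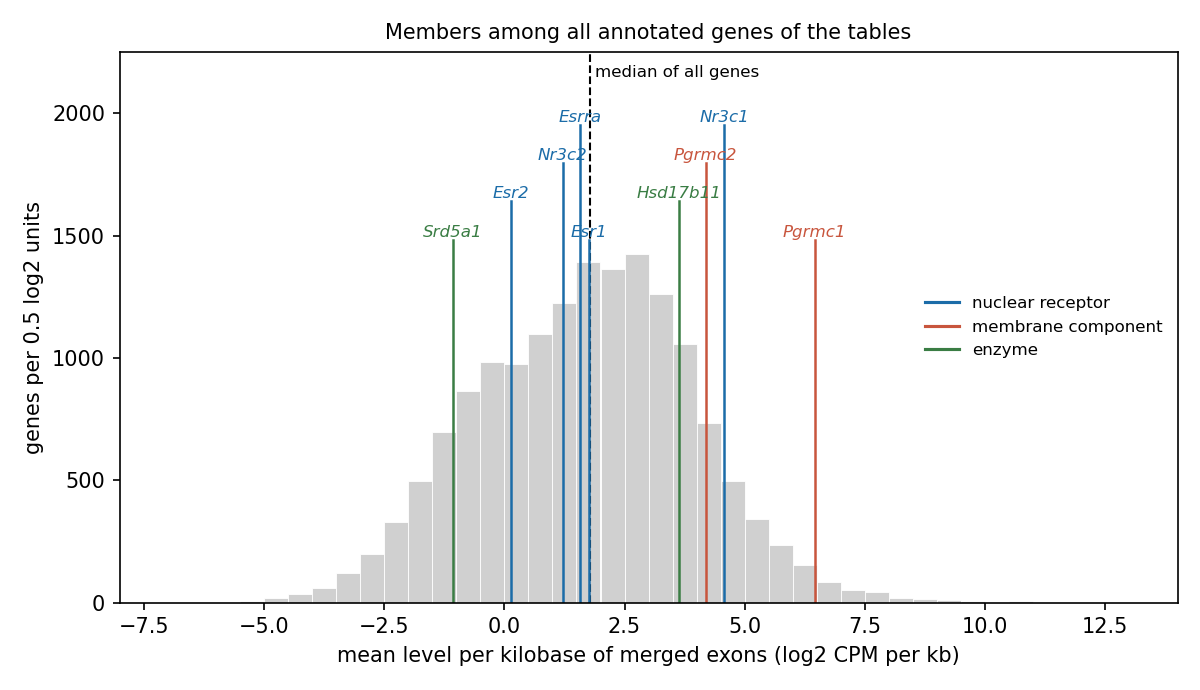
Histogram of the pooled mean level of all annotated genes, in log2 CPM per kb of merged exons, with each of the 9 steroid genes as a vertical line colored by role. Pgrmc1 stands far to the right, Nr3c1, Pgrmc2 and Hsd17b11 stand right of the dashed median, Esr1 sits on it, and Srd5a1 is farthest left.

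The estrogen receptors differed in level. Esr1 lies on chromosome 10 (GRCm38, 4611593 to 5005614, plus strand), and its mean was 5.53 log2 CPM, or 46.3 CPM as a geometric mean. Esr2 lies on chromosome 12 (76120419 to 76177259, minus strand), with a mean of 1.89 log2 CPM, or 3.70 CPM. Per kb of merged exons Esr1 stood 3.08-fold above Esr2. The fold was 6.62 with the longest transcript as the length and 11.8 with the coding length. The merged exons of Esr1 span 13661 bases and those of Esr2 3368 bases, whereas their coding lengths are 1797 and 1701 bases. Esr1 was thus the higher of the 2 under each length, although the size of the gap depends on the gene model.

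Among the promoters of the steroid genes, the windows that hold the half-site GGTCA are shown first. Estrogen receptors and their relatives read these letters in DNA. Each window is 300 bases, 250 before to 50 after the RefSeq start, on the gene's own strand. Capitals mark GGTCA or its reverse complement TGACC. Esr1 (GRCm38.p6, chr10:4611739-4612038, plus strand) held 1 half-site, Esr2 (chr12:76177210-76177509, minus strand) held 2, and the mineralocorticoid receptor gene Nr3c2 (chr8:76902080-76902379, plus strand) held 2.
Esr1: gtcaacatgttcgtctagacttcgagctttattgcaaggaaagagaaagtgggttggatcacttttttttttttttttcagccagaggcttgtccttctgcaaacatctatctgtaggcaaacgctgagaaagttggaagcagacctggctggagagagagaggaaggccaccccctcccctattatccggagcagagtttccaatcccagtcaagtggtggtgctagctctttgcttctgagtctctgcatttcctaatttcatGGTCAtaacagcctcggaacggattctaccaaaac
Esr2: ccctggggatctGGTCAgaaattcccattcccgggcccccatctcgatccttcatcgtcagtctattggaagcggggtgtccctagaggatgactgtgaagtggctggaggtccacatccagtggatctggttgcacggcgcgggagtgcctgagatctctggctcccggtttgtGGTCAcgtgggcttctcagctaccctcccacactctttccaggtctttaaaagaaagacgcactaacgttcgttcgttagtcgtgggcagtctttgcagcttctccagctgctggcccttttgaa
Nr3c2: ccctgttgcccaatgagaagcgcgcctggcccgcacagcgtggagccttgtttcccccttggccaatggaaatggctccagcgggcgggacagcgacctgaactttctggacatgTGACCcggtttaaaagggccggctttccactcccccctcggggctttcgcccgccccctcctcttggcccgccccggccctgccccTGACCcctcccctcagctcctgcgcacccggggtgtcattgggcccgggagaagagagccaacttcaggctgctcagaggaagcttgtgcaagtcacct

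Of all 32841 promoter windows in the RefSeq set, 40.5% held this half-site on either strand, as did 37.9% of the 13994 windows of genes with a row. A match is therefore common and describes the letters only. Neither the full estrogen response element GGTCANNNTGACC nor the extended half-site TCAAGGTCA, the form known for estrogen-related receptors, was found in a window of a steroid gene. The glucocorticoid response element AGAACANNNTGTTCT was not found in them either. Across all windows these 3 patterns were rare, at 0.0700%, 0.423% and 0.00913%. The 8 matched genes have 9 windows, 2 of them of Esr1. The second Esr1 window (chr10:4709908-4710207) held no half-site. Nor did the windows of Esrra, Hsd17b11, Pgrmc1, Pgrmc2 and Srd5a1.

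Esrra encodes ERRα, an orphan relative of the estrogen receptors that binds no known natural estrogen and regulates mitochondrial genes. Its gene lies on chromosome 19 (6910977 to 6921813, minus strand), and its mean was 3.71 log2 CPM, or 13.1 CPM. Per kb Esrra stood close to Esr1, which was 1.14-fold higher with merged exons, 1.39-fold with the longest transcript and 2.50-fold with the coding length. Exons of Esrra share 73 bases with Trmt112 on the opposite strand, itself at 3.45 log2 CPM, and 91 bases with the microRNA gene Mir6990. Its relative Esrrg had a mean of 2.40 log2 CPM and stood at 0.851 CPM per kb, below Esrra.

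The corticosteroid receptors showed the wider gap. Nr3c1 lies on chromosome 18 (39410545 to 39519421, minus strand) and had a mean of 7.52 log2 CPM, or 183 CPM. Nr3c2, on chromosome 8 (76899442 to 77245012, plus strand), had a mean of 3.91 log2 CPM, or 15.0 CPM. Nr3c1 stood 10.3-fold above Nr3c2 per kb of merged exons, 11.2-fold with the longest transcript and 15.2-fold with the coding length. The glucocorticoid receptor transcript was the more abundant with each length. In the list of steroid-class nuclear receptors, 6 of 8 genes had a row and 3 lay at or above the all-gene median of log2 CPM. Of these 3, only Nr3c1 also lay above the all-gene median per kb. The 2 lowest of the list were Esr2 and Esrrg.

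The membrane components were both abundant. PGRMC1 and PGRMC2 are small heme-binding proteins of the endoplasmic reticulum that support cytochrome P450 enzymes. Pgrmc1 lies on chromosome X (36598206 to 36606079, plus strand), with a mean of 7.34 log2 CPM or 163 CPM, and Pgrmc2 on chromosome 3 (41066326 to 41083046, minus strand), with 5.88 log2 CPM or 59.0 CPM. Per kb Pgrmc1 stood 4.81-fold above Pgrmc2 with merged exons, 4.46-fold with the longest transcript and 3.07-fold with the coding length. It also stood 3.67-fold above Nr3c1. Pgrmc1 is X-linked, and its level in each sex was not computed.

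Of the 8 members with a window, all but Nr3c1, Pgrmc1 holds the most GC boxes, the letters GGGCGG bound by Sp1-family factors. Its promoter window is shown for this reason. It lies at chrX:36597943-36598242 (GRCm38.p6, plus strand) and has 5, marked in capitals as GGGCGG or CCGCCC.
Pgrmc1: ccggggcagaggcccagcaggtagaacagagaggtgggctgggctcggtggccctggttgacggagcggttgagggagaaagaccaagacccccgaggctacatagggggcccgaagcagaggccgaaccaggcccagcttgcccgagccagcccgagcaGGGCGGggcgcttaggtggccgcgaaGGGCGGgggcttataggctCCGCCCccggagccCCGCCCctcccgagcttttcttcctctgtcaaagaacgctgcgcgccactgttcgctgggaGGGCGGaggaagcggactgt

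GC boxes were found in 35.7% of all windows and in 60.6% of windows of genes with a row, so this feature too is common. Srd5a1 held 4, Pgrmc2 and Nr3c2 held 3 each, Esrra 2 and Hsd17b11 1. Neither Esr1 window nor the Esr2 window held any. The GC content of the windows ran from 46.3% in the first Esr1 window to 69.3% in Pgrmc2, beside a median of 60.3% for windows of genes with a row. TATAAA was found in no member window, beside 7.37% of windows of genes with a row.

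The list of membrane receptors and relatives holds 10 genes with Pgrmc1 and Pgrmc2 among them, of which 7 had a row and 6 lay at or above the all-gene median of log2 CPM. Per kb, Nenf, a secreted relative of the PGRMC proteins, stood at 50.4 CPM and Paqr7, a membrane progestin receptor, at 12.3 CPM. Cyb5d2, another relative with the same heme-binding fold, stood at 2.89 CPM, below the all-gene median of 3.45 CPM per kb. Gper1, a G protein-coupled receptor that responds to estrogen, had a mean of 1.35 log2 CPM and was the lowest of the list on both scales. Nenf stood 2.77-fold above Pgrmc2 with merged exons but at 0.805 of it with the coding length, so their order depends on the length used.

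The enzymes stood far apart. Hsd17b11, a lipid droplet enzyme of the 17-beta-hydroxysteroid dehydrogenase family, lies on chromosome 5 (103989762 to 104021919, minus strand) with a mean of 5.34 log2 CPM, or 40.6 CPM. Srd5a1, a steroid 5-alpha-reductase that reduces testosterone and progesterone, lies on chromosome 13 (69573449 to 69611442, minus strand) with a mean of 0.48 log2 CPM, or 1.39 CPM. Per kb Hsd17b11 stood 26.0-fold above Srd5a1. Srd5a1 was the lowest of the 9 genes per kb and stood at the 11.9th percentile of all annotated genes per kb. Of its 2909 exonic bases, 476 (16.4%) are shared with Gm17108 on the same strand, so reads there cannot be assigned to 1 of them by position.

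**Figure D2:**
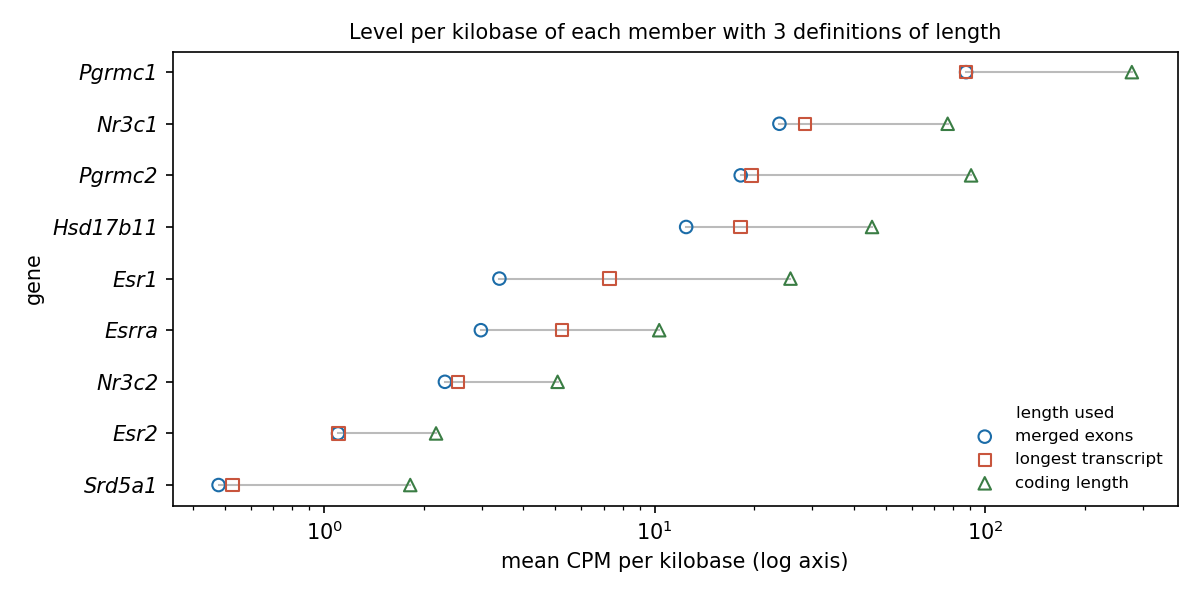
Pooled mean CPM per kb of each steroid gene on a log axis, with 3 definitions of gene length joined by a gray line. The coding length moves every gene to the right, and Pgrmc2 then passes Nr3c1, the only change of order among the 9.

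Within the 17-beta-hydroxysteroid dehydrogenases, 6 of 12 genes had a row and 4 of them lay at or above the all-gene median of log2 CPM. Hsd17b4, a peroxisomal enzyme of fatty acid β-oxidation, was highest at 40.2 CPM per kb, and Hsd17b10, a mitochondrial dehydrogenase, stood at 28.3 CPM. Hsd17b12, which also acts in fatty acid elongation, stood at 20.9 CPM per kb. Hsd17b11 came after these 3, at 0.595 of Hsd17b12 with merged exons and 0.846 with the coding length. Hsd17b2, which oxidizes estradiol to estrone, stood at 4.14 CPM, and Hsd17b7, an enzyme of cholesterol synthesis, at 1.51 CPM. Hsd17b2 lay above the all-gene median per kb (3.45 CPM), though below the all-gene median of log2 CPM. Hsd17b10 stood 2.27-fold above Hsd17b11 with merged exons and at 0.994 of it with the coding length.

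For the 5-alpha-reductases, 2 of 3 listed genes had a row. Srd5a3, known mainly for making dolichol for protein glycosylation, stood at 7.31 CPM per kb, 15.3-fold above Srd5a1 with merged exons, 29.1-fold with the longest transcript and 18.9-fold with the coding length. Other steroid enzymes and their redox partners had rows for 7 of 18 listed genes, and 3 lay at or above the all-gene median of log2 CPM. Por, which passes electrons to cytochrome P450 enzymes, led with 20.5 CPM per kb, before H6pd (11.2 CPM), which makes NADPH in the endoplasmic reticulum, and Stard3 (4.20 CPM), a cholesterol carrier. Fdxr, a mitochondrial electron carrier, stood at 1.56 CPM, and Hsd11b1, which regenerates active glucocorticoid and draws on that NADPH, at 0.253 CPM per kb. Srd5a1 was 1.89-fold above Hsd11b1 with merged exons and at 0.967 of it with the longest transcript. Undivided means of Srd5a1 (1.39 CPM) and Hsd11b1 (1.08 CPM) were both low and the counts behind them are unknown, so folds over either are rough.

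Chaperones and coregulators of the receptors lay mostly above the all-gene median. All 12 listed chaperones had a row and lay at or above the all-gene median of log2 CPM. The list median was 6.44 log2 CPM beside 3.76 for all genes. Per kb, Hsp90ab1 stood at 567 CPM and Hspa8 at 231 CPM. St13, named for its undivided mean of 8.01 log2 CPM, stood at 24.9 CPM per kb, below Fkbp4 (32.6 CPM) and other chaperones. Ppid stood at 5.76 CPM and Fkbp5, the lowest of the list, at 2.00 CPM, which is below the all-gene median of 3.45 CPM per kb. Fkbp4, the immunophilin that favors hormone binding, stood 16.3-fold above Fkbp5, which opposes it, with merged exons and 4.79-fold with the coding length.

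Of 12 coregulators described, all had a row and 11 lay at or above the median of log2 CPM. Per kb, the corepressor Ncor1 was highest at 29.3 CPM and the acetyltransferase Crebbp stood at 23.5 CPM. The acetyltransferase Ep300, named for its undivided mean of 7.93 log2 CPM, was below Ncoa3 (23.3 CPM) per kb, a coactivator named after its value was seen. Carm1, a methyltransferase, stood at 6.47 CPM, and Ppargc1a, the partner of ERRα in mitochondrial gene control, was lowest at 0.687 CPM. Ppargc1a was the one of these 12 under the median.

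Genes known to be induced by the hormones were present as well. All 12 listed glucocorticoid-induced genes had a row and 9 lay at or above the median of log2 CPM, led by Mt1 (156 CPM per kb), Per1 (20.3 CPM) and Tsc22d3 (17.4 CPM). Cebpd and Mt2, the last by undivided mean, stood at 2.64 and 4.78 CPM per kb, whereas Fkbp5 was the lowest of the list per kb at 2.00 CPM. Mt2 thus lay above and Fkbp5 below the all-gene median of 3.45 CPM per kb, the reverse of their sides by log2 CPM. Of 10 listed estrogen-induced genes 7 had a row and 5 lay at or above the median, with Igfbp4 (50.0 CPM), Ctsd (66.2 CPM) and Xbp1 (20.5 CPM) highest per kb and Cxcl12 (0.521 CPM) and Ccnd1 (0.613 CPM) lowest. Such genes answer to many signals, so their pooled level measures no hormone action.

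**Figure D3:**
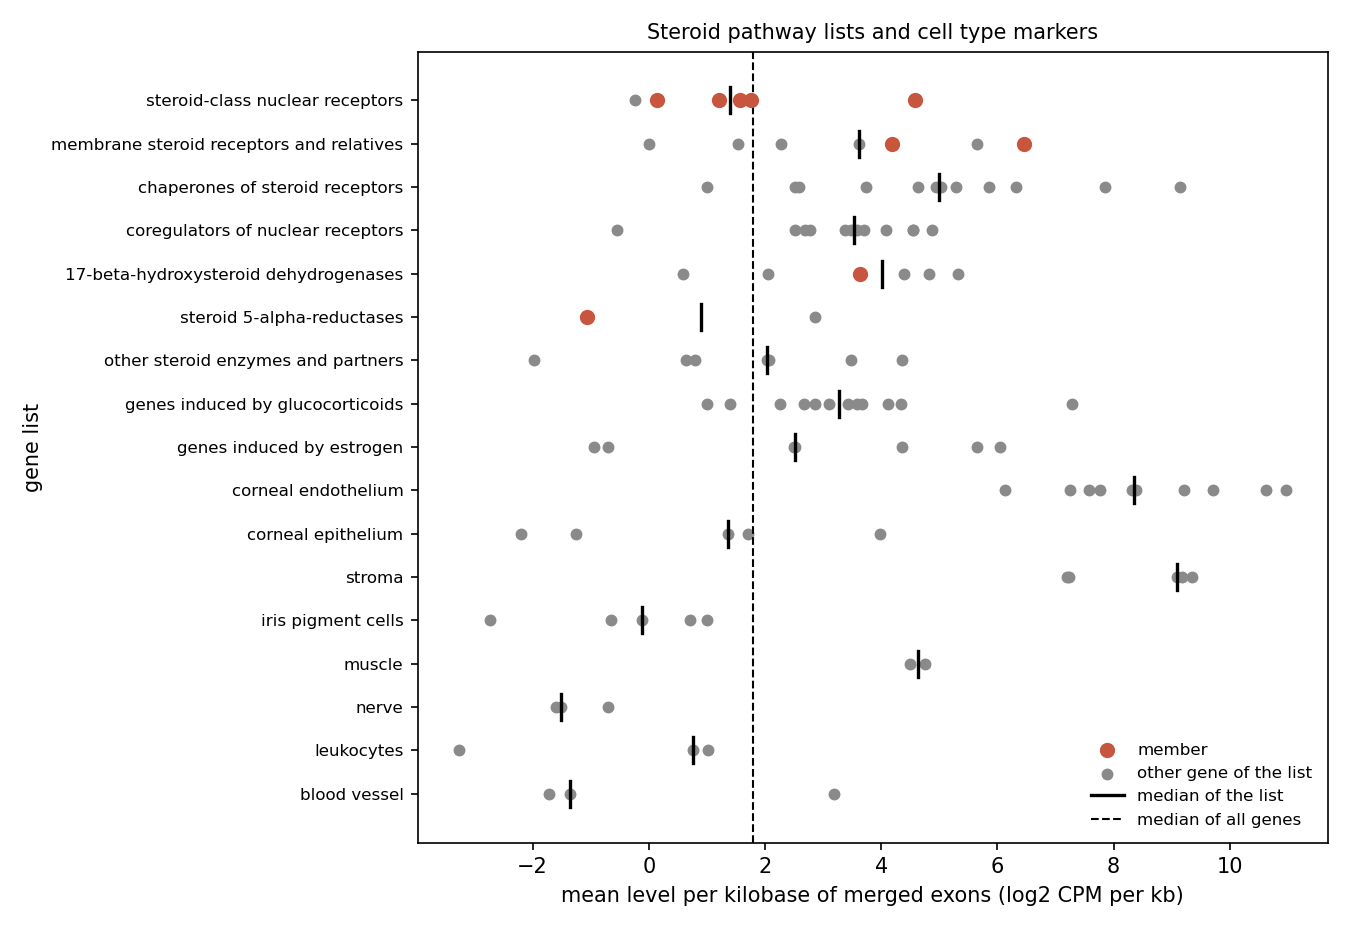
Pooled mean level of each gene with a row in the steroid pathway lists and the cell type marker lists, in log2 CPM per kb, with the 9 steroid genes in red, the list median as a black bar and the all-gene median as a dashed line. The list medians of chaperones and coregulators lie right of the dashed line, as do those of corneal endothelium and stroma, which are highest. The median of the nuclear receptors lies left of it. By undivided mean, the nuclear receptor list median (3.81 log2 CPM) lies just above that of all genes (3.76 log2 CPM).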

How the data were processed

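RNA of 12 libraries was sequenced (stranded total RNA kit, paired-end reads). Per the labels and the study's methods, the authors aligned reads with HISAT2 to GRCm38/mm10, scaled counts to CPM by TMM and fitted limma with voom. Their counting tool and strand setting are not given in the sources used here. The 3 deposited tables hold the authors' fits of genotype, sex and interaction. Their columns of fold changes, t, p-values and log odds were not used. The mean log2 CPM column that the authors deposited was, and it was equal in the 3 tables. Consequently no comparison of KO with WT or of the sexes, no error and no test is given. The files used here give no count or depth.

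Levels were divided by merged exon length (GENCODE M21, GRCm38), which 15824 of 15838 genes had. Longest transcript and coding length were alternatives. Promoters are RefSeq windows of GRCm38.p6, matched by symbol for 8 of 9 members, all but Nr3c1. Motifs were searched on both strands. The length, percentile and motif functions were tested on simulated data.

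Members and lists were chosen with earlier results of these data known. Named were all members, of each list the 3 highest and 2 lowest genes by mean level, and Nenf, Srd5a3, Hsd17b12, Hsd11b1, Esrrb, Esrrg, Fkbp4 and Fkbp5 where they had a row. Cell type lists are given by their range and by members past the median. A gene of the coregulator list is not reported here, and the list is counted without it. The motifs, the gene pairs compared and the promoters printed were chosen after values were seen.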

Additional observations from a re-analysis of the deposited data

How the results depend on the processing

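Of the 9 steroid genes, 6 lay at or above the all-gene median of log2 CPM. The number was 5 among genes of at least 1 CPM and 4 per kb of merged exons. At least 10 CPM was reached by 7 of 9, beside 55.6% of all genes, and reading the mean from another table checks nothing since the column is equal in the 3 tables. With the 3 lengths, 7 of the 9 genes kept their place in the order, and Nr3c1 and Pgrmc2 exchanged theirs with the coding length. Against the order by undivided log2 CPM, in which Nr3c1 came before Pgrmc1, most places moved. The number moved was 6 with merged exons, 6 with the longest transcript and 7 with the coding length. The order turned with the length for Nenf and Pgrmc2, Hsd17b10 and Hsd17b11, and Srd5a1 and Hsd11b1. No paired analysis was possible because the only values used are means over all libraries, and for the same reason KO against WT, female against male and leaving out a library were not fitted. A mean over 12 libraries hides any spread between them, and the counts behind every mean are unknown.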
